A study of Jatropha curcas with 31 samples.

Results

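Transcripts stored in the mature dry seed of Jatropha curcas (stage VI, the last of 6 maturation stages) were set against those of leaf, on 14 of the 31 arrays of the series, 4 of dry seed and 10 of leaf. Of the leaf arrays 5 are labelled toxic and 5 non-toxic, and all 10 were pooled as leaf. The species is known for phorbol esters, which make the seed of most plants toxic. Dry seeds were taken from 1 selected plant at Kamisse, Ethiopia, whose toxicity the labels do not give, so organ and plant cannot be told apart in any value below. No treatment is named for either group. The extraction protocol speaks of seeds only, and nothing says that the leaf arrays came from separate plants, so p-values measure the spread between these samples, which may be technical. The methods give 3 biological replicates in one place and 3 to 4 in another, while stage VI has 4 arrays. All 57842 probes, on 19838 contigs, were compared. The array was designed from transcripts sequenced in pooled seed stages. A transcript made only in leaf therefore carries no probe, and "leaf" below always means the leaf signal of seed contigs.

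A dry seed holds messenger RNA made on the mother plant and kept through drying. In oilseeds this store is known to hold transcripts of oil body and storage proteins, of late embryogenesis abundant (LEA) proteins, small heat shock proteins and other proteins of drying tolerance, and of enzymes used when reserves are turned over after imbibition. A leaf cell carries instead the transcripts of photosynthesis, pigment synthesis and cell wall and cuticle formation, while ribosomal proteins, respiration and the charging of transfer RNA are needed in both organs.

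The probe sequences of the array were not used here. For 4 contigs described below, 1 stored in dry seed and 3 higher in leaf, quantitative PCR primers of the study are shown, so that the transcripts can be traced. Each line gives the pair in lower case, 5′ to 3′, first the forward and then the reverse primer. The first is the abscisic acid enzyme of the dry seed, the next the leaf phenylalanine ammonia-lyase, then an ascorbate peroxidase and a chloroplast DnaJ chaperone.
contig02415 forward: tggcagaaggaggtgaagtc
contig02415 reverse: acttgctccatgtccaatgc
contig05269 forward: tgagagtggaagtgcagcaa
contig05269 reverse: cggtgagcaatccactacct
contig02619 forward: accgtccttctctccactca
contig02619 reverse: atgccacaaggaaaggtctg
contig00372 forward: gacggcgatttagacagagc
contig00372 reverse: accggctagtggtggtttta

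The signal of a probe is given on the log2 scale after quantile normalization of the 14 arrays. A difference is stage VI minus leaf on that scale, from a limma model with the slide as a block, with its 95% confidence interval (CI) and a p-value adjusted by Benjamini-Hochberg over all probes. Each of the 4 slides held 1 array of stage VI and 2 or 4 of leaf. The software marked 54.3% to 69.6% of probe spots as well above background in dry seed and 51.2% to 63.2% in leaf, and no spot was saturated. The number of arrays limits the precision. Arrays correlated with r of 0.893 to 0.976 within dry seed, at least 0.889 within leaf and 0.748 to 0.848 between the organs. Slide 4, which was scanned at another time, stood apart. The second principal component (23.9% of variance) held its 5 arrays at 133.6 to 224.1 and the others at -145.2 to -28.3, while the first (52.3%) separated the organs. Dry seed values are therefore given slide by slide. Leaf values are mostly given as a range and median over all slides, and overlap is judged on that range.

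At an adjusted p under 1e-08, the threshold named in the methods, 400 probes (0.692%) differed, 224 (0.387%) higher in dry seed and 176 (0.304%) higher in leaf. At an adjusted p under 0.05 the number was 27202 (47.0%), 14022 (24.2%) higher in dry seed and 13180 (22.8%) higher in leaf, so that a call at 0.05 is common in this comparison. One probe then stood for each contig, the one whose 2 organ means had the highest average. On this basis 12275 contigs (61.9%) were called at 0.05, and 6346 (32.0%) were higher in dry seed and 5929 (29.9%) higher in leaf at 0.05, and 134 (0.675%) and 117 (0.590%) at 1e-08. The 4 and 10 values did not overlap in 3543 contigs (17.9%) in favour of dry seed and in 3584 (18.1%) in favour of leaf. These shares are the background for each count below. The split of the 400 moved with the setting. Normexp gave 648 and 312 probes higher in dry seed and leaf, the authors' own log2 values 766 and 984, scaling to the 75th percentile 253 and 257 and no slide block 389 and 404. Without the dry seed array of slide 1 the split was 72 and 16, without that of slide 3 it was 79 and 19. On slides 1 to 3, with toxic leaf only and with non-toxic leaf only, limma called 0 probes at 1e-08, against 30276, 27482 and 27738 probes at an unadjusted p under 0.05.

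Detection sorted the contigs in another way, with no test. A contig counts as detected on an array where its representing probe is well above background. Of the 19838 contigs, 12253 (61.8%) were detected on all 14 arrays, 294 (1.48%) on the 4 arrays of stage VI and on no leaf array, 186 (0.938%) on the 10 leaf arrays and on no array of stage VI, and 1383 (6.97%) on none. Without slide 4 the class of dry seed grew from 294 to 565 contigs. The remaining 5722 (28.8%) were detected on some arrays only. Of those on all 14 arrays 4097 were higher in dry seed, 4651 higher in leaf and 3505 not called at 0.05.

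**Figure D1:**
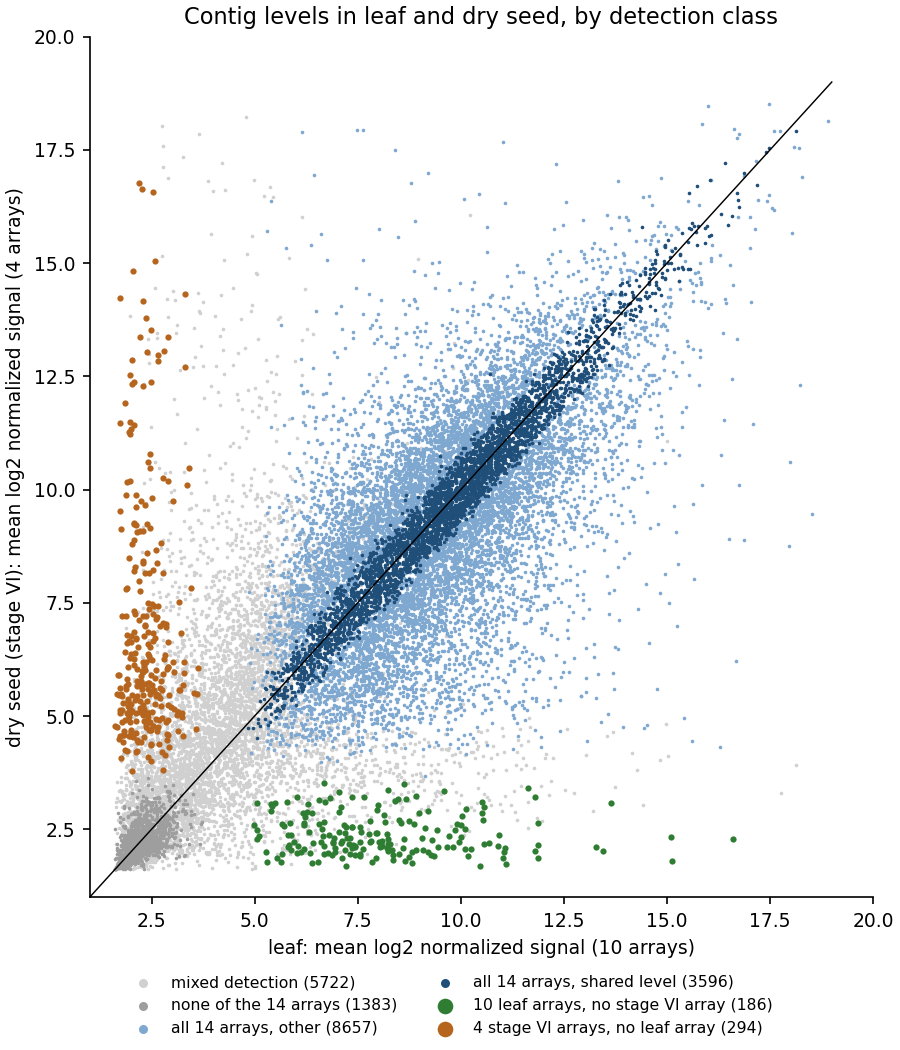
Mean log2 normalized signal of each of the 19838 contigs in leaf (x axis, 10 arrays) and in dry seed (y axis, 4 arrays), coloured by detection class, with the line of equality. The 294 contigs detected in dry seed and on no leaf array lie along the left edge, the 186 of the reverse class along the bottom, and the 3596 at a shared level along the line.

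All 5 contigs of the oil body protein list, annotated as oleosin or as hydroxysteroid dehydrogenase, were higher in dry seed at 0.05. Their median difference was 5.02 against 0.0353 over all contigs. The oleosin contig12313, whose product coats the oil body, read 16.70, 16.65, 16.55 and 16.51 on slides 1 to 4 in dry seed and 3.06 to 4.73 (median 4.05) in leaf. The difference was 12.61 (95% CI 11.82 to 13.39, adjusted p = 4.97e-10), and its probe was well above background on 2 of 10 leaf arrays. A contig of the steroleosin type, contig16375 (hydroxysteroid dehydrogenase of the oil body surface), read 12.21, 13.27, 12.19 and 11.70 in dry seed and 1.89 to 3.80 (median 2.00) in leaf, a difference of 9.91 (95% CI 9.20 to 10.61, adjusted p = 1.46e-09). It was well above background on 1 of 10 leaf arrays, so for both contigs the leaf side of the difference was mostly background. In neither did the organs overlap. The other 3 contigs of the list differed by 4.34 to 5.02, did not overlap either, and 2 of the 5 were detected on all 14 arrays. Of 4 contigs on the storage protein list, among them contig00553 (annotated as a cupin with an oxalate oxidase number), 3 were higher in dry seed and none in leaf. This count was 1 with the mean of all probes of a contig, where the median of the list fell from 1.70 to 0.355, and 2 on slides 1 to 3 and with no slide block. The vicilin-like contig13681 (a storage globulin) read 12.98, 13.05, 12.79 and 15.43 in dry seed, highest on slide 4, against 1.90 to 5.27 (median 3.63) in leaf, and differed by 10.14 (95% CI 8.96 to 11.33, adjusted p = 5.36e-08). The 11S globulin beta subunit contig10678 stood much closer, at 4.51, 5.90, 5.99 and 4.21 against 1.671 to 5.39 (median 1.72), with overlapping groups and a difference of 2.13 (95% CI 0.90 to 3.36, adjusted p = 0.00804). Only 3 of its 4 dry seed values were well above background. On slides 1 to 3 alone its call was lost (adjusted p = 0.103), and its 1 antisense probe was higher in leaf. The remaining 2 contigs of the list differed by 1.26 (called) and 0.41 (not called).

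Proteins of embryo maturation and drying made up the second group. The embryo-specific contig00950 read 15.41, 15.28, 15.19 and 14.73 in dry seed and 1.85 to 4.19 (median 2.51) in leaf, a difference of 12.27 (95% CI 11.41 to 13.13, adjusted p = 1.28e-09). A second embryo-specific contig, contig01353, read 14.51, 14.77, 14.58 and 13.95 against 1.66 to 4.95 (median 2.18) and differed by 11.83 (95% CI 10.52 to 13.14, adjusted p = 3.76e-08). Both were well above background on 1 leaf array. Over the 8 contigs of the LEA and maturation list 4 were higher in dry seed and 1 in leaf, with a median difference of 4.36. The other 2 that were higher in dry seed, contig15908 (a seed maturation protein) and contig05530 (a seed biotin-containing protein), differed by 8.34 and 9.24, with no overlap. Not called were contig02026 (LEA D-34-like), contig01083 (seed maturation-like) and contig00783 (LEA protein 2-like), at 0.37, 0.29 and 0.01. The median thus lies in the gap between 0.37 and 8.34, at the value of no contig. No contig annotated as LEA was called higher in dry seed by its representing probe. The call in leaf, contig00699 (an LEA hydroxyproline-rich glycoprotein, a family known outside seeds too), was small, at -0.40 (95% CI -0.68 to -0.12, adjusted p = 0.0219), with overlapping values of 9.63, 9.26, 9.74 and 9.43 and 9.48 to 10.18 (median 9.90). It was lost with no slide block (adjusted p = 0.0765), with toxic leaf only (0.0562), with non-toxic leaf only (0.185) and without the dry seed array of slide 2 (0.101). The contig annotated as LEA protein 2-like is described with the shared contigs.

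Heat shock proteins were higher in dry seed in 10 of 16 contigs and higher in leaf in 4, with a median difference of 3.41. Hsp22, the small heat shock protein of contig02395, read 14.87, 14.92, 14.97 and 15.65 in dry seed and 4.16 to 7.63 (median 6.01) in leaf, and the mitochondrial small heat shock protein of contig00455 read 13.31, 13.21, 13.47 and 14.19 and 2.86 to 5.49 (median 4.12). These differed by 9.53 (95% CI 8.71 to 10.35, adjusted p = 5.83e-09) and 9.51 (95% CI 8.96 to 10.06, adjusted p = 2.68e-10), with no overlap. On leaf the Hsp22 probe was well above background on 9 of 10 arrays, so this transcript was measured in leaf too. The strongest opposite difference was that of the chloroplast DnaJ chaperone contig00372, at 7.402, 7.37, 8.14 and 7.97 in dry seed and 13.54 to 15.94 (median 14.90) in leaf, which differed by -7.18 (95% CI -7.95 to -6.41, adjusted p = 2.99e-08). Another DnaJ-related chaperone, contig00106, differed by -2.77 (95% CI -3.09 to -2.45, adjusted p = 4.95e-08), with within-slide differences of -2.81 to -2.71.

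The water channel and redox families were split between the organs. The probable tonoplast aquaporin TIP3-2-like (contig19897, of a water channel family that in Arabidopsis marks the storage vacuole of seeds) read 16.88, 16.89, 16.84 and 18.26 in dry seed and 2.80 to 5.14 (median 4.30) in leaf, a difference of 13.18 (95% CI 12.61 to 13.74, adjusted p = 2.25e-11). Among the 5 other aquaporin contigs 1 was higher in dry seed and 3 in leaf. A plasma membrane aquaporin contig05958 read 11.15, 11.37, 11.06 and 11.89 against 13.64 to 15.70 (median 14.69) and differed by -3.24 (95% CI -3.86 to -2.62, adjusted p = 2.48e-06), while the plasma membrane aquaporin contig00619 was higher in dry seed, by 1.88 (95% CI 1.147 to 2.60, adjusted p = 0.000587). Peroxiredoxins, which remove peroxides, were split as well, with 4 of 10 contigs higher in dry seed and 4 in leaf. Here contig02951 read 16.43, 16.58, 16.42 and 17.05 against 3.11 to 5.79 (median 3.89), a difference of 12.42 (95% CI 11.39 to 13.45, adjusted p = 4.30e-09), whereas contig21004 read 3.998, 1.98, 1.74 and 4.85 against 9.78 to 11.17 (median 10.81), a difference of -7.46 (95% CI -8.47 to -6.44, adjusted p = 1.72e-07). The MFT-like contig12829, of a family that in Arabidopsis acts on germination, read 13.74, 13.78, 13.85 and 14.27 and 1.84 to 5.07 (median 3.66) and differed by 10.17 (95% CI 9.23 to 11.11, adjusted p = 9.82e-09). Among annotated contigs past 1e-08 the largest difference in favour of dry seed was that of contig02217, annotated as an NADP alcohol dehydrogenase and 3-oxoacyl reductase, at 17.35, 17.45, 17.50 and 19.09 in dry seed against 2.12 to 5.78 (median 3.30) in leaf, which is 14.50 (95% CI 13.76 to 15.25, adjusted p = 9.78e-11).

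Further contigs named by the size of their difference were a GPI-anchored protein (contig00062), an outer envelope pore protein (contig05543, a channel of the plastid envelope) and a cysteine proteinase 15a-like (contig08053, a papain-type protease). They differed by 10.93 (95% CI 10.30 to 11.56, adjusted p = 2.72e-10), 10.69 (95% CI 9.97 to 11.40, adjusted p = 8.70e-10) and 10.13 (95% CI 9.50 to 10.76, adjusted p = 4.78e-10). Their leaf values were 3.39 to 5.19 (median 4.11), 4.101 to 6.09 (median 4.71) and 4.24 to 7.66 (median 6.34), and 6, 8 and 9 of the 10 leaf arrays were well above background. All 3 were thus measured on most leaf arrays at a low level.

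**Figure D2:**
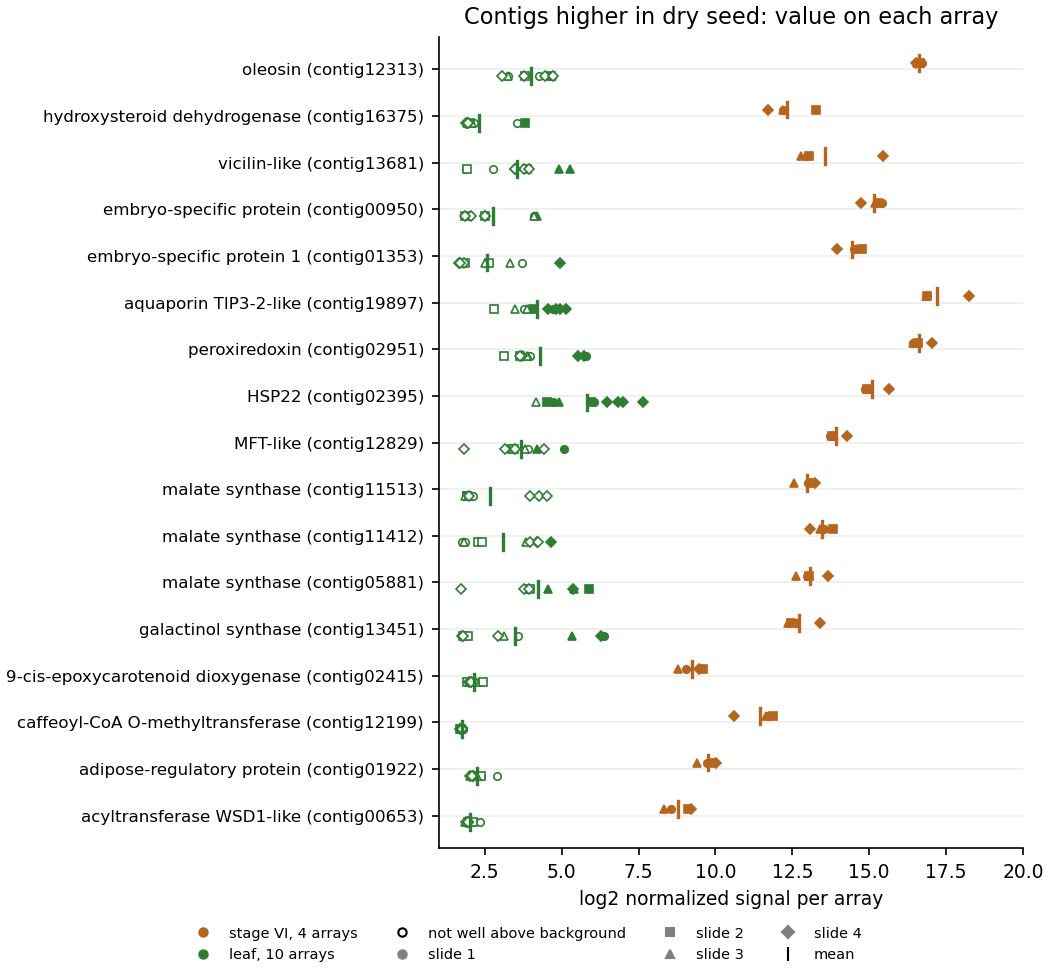
Log2 normalized signal of 17 contigs higher in dry seed on each of the 4 stage VI and 10 leaf arrays, with marker shape for the slide, open markers for values not well above background and a bar for the mean. The organs do not overlap in any of them, and malate synthase contig11513 and the last 4 contigs have open leaf markers only.

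Enzymes of reserve use were stored too. Malate synthase and isocitrate lyase are the pair of enzymes particular to the glyoxylate cycle, by which seedlings turn oil into sugar. All 3 malate synthase contigs were higher in dry seed. Contig11412 read 13.55, 13.81, 13.41 and 13.06 in dry seed and 1.75 to 4.67 (median 3.13) in leaf and differed by 10.56 (95% CI 9.55 to 11.57, adjusted p = 1.28e-08). Contig11513 read 13.004, 13.12, 12.55 and 13.23 against 1.87 to 4.52 (median 2.04). It was well above background on no leaf array. Its fold is therefore a bound, defined with the 294 contigs below, at least 594-fold higher in dry seed (adjusted p = 6.18e-09). Contig05881 read 12.99, 13.05, 12.61 and 13.67 against 1.72 to 5.90 (median 3.97) and differed by 8.77 (95% CI 7.42 to 10.11, adjusted p = 4.35e-07). The dry seed values of each contig lay close together, while the leaf values spread over several log2 units near background. The isocitrate lyase contig14634 read 15.001, 14.81, 15.18 and 15.42 in dry seed, while leaf spread from 3.95 to 14.24 (median 8.59). The difference was 6.404 (95% CI 2.60 to 10.21, adjusted p = 0.00938), and within slides it ran over 4.61 to 9.33. Leaf stretched from 3.95 to 12.79 on slide 3 and from 6.46 to 14.24 on slide 4, so the leaf arrays differed widely in this contig, and none reached the dry seed values. A second contig with the isocitrate lyase number, contig00482, went the other way by -10.39 (95% CI -11.12 to -9.66, adjusted p = 1.31e-09). Its sequence match was to a carboxyvinyl-carboxyphosphonate phosphorylmutase, an enzyme of the same superfamily, so its 2 annotations differ.

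Raffinose family sugars, which accumulate as seeds dry, start from galactinol. All 6 galactinol synthase contigs were higher in dry seed, by 3.21 to 9.18 (median 7.39). Contig13451 read 12.61, 12.45, 12.36 and 13.39 in dry seed and 1.76 to 6.38 (median 3.04) in leaf and differed by 9.18 (95% CI 7.23 to 11.13, adjusted p = 5.42e-06). Contig03208 read 10.64, 9.67, 10.55 and 10.65 and 1.76 to 6.20 (median 2.12) and differed by 7.70 (95% CI 6.14 to 9.26, adjusted p = 3.65e-06). In none of the 6 did the organs overlap. Raffinose synthase contigs, which add the sugar, were split, with 3 of 5 higher in dry seed and 2 in leaf. Contig08138 read 10.30, 10.67, 10.24 and 9.47 against 1.98 to 5.58 (median 3.71) and differed by 6.28 (95% CI 4.85 to 7.71, adjusted p = 9.44e-06). Contig05365 read 4.54, 4.27, 4.11 and 5.93 against 8.81 to 10.76 (median 9.82) and differed by -4.93 (95% CI -5.57 to -4.29, adjusted p = 1.24e-07). Contig05032 was on all leaf arrays and on no array of stage VI, at least 7.53-fold higher in leaf. Alpha-galactosidases, which break these sugars down, numbered 2 of 8 in each direction.

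The contigs of dry seed with no leaf signal well above background were mostly without annotation, as were contigs in general. Of the 294, 34 were annotated and 260 were not, 213 were represented by a sense and 81 by an antisense probe, and 293 were called at 0.05 and 68 at 1e-08. As the background for these and later counts, 3451 of all 19838 contigs were annotated and 12148 were represented by a sense probe. The class was defined on the same signals that were tested, so these calls follow largely from its definition. Only a bound can be given for the fold of these contigs, the dry seed mean over the mean of, per leaf array, the higher of its own signal and the detection limit (the lowest signal of any probe well above background there). A probe can lie above that limit and still not be well above background, so the bound is not a strict one. Each "at least" fold in the text is against a level set in this way. The bound ran from 1.13-fold to 9293-fold with a median of 4.83-fold. It reached 4-fold in 168 contigs and 16-fold in 76. In 217 of the 294 no other probe of the contig was above background on any leaf array either, a count added after seeing the data.

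Among the 15 brightest annotated contigs of this class were several oxidases. The cytochrome P450 contig00658 (matched to CYP71A12 of Arabidopsis) read 13.36, 13.28, 13.24 and 13.57 in dry seed, none of the 10 leaf values exceeded 4.31, and it was at least 859-fold higher. The contig04359, annotated as 4-hydroxyphenylacetaldehyde oxime monooxygenase (a P450 of cyanogenic glucoside synthesis in sorghum), read 12.37, 12.31, 12.44 and 12.37 against 1.94 to 3.61 (median 2.10) and was at least 441-fold higher. Of all 19 contigs with the number of this oxime monooxygenase 5 were higher in dry seed and 6 in leaf, a count made after its values were seen. Contig04060, a monooxygenase, read 9.56, 9.81, 9.65 and 10.22, and contig00076, a flavonoid 3',5'-hydroxylase, 8.80, 8.43, 8.76 and 9.30. They were at least 72.8-fold and at least 37.7-fold higher. Within each of the 4 contigs the dry seed values lay within 1 log2 unit.

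Abscisic acid, phenylpropanoid, lipid and terpenoid metabolism were also among the 15. The 9-cis-epoxycarotenoid dioxygenase contig02415 (NCED6, whose reaction is the committed step of abscisic acid synthesis) read 9.05, 9.60, 8.80 and 9.47 in dry seed and 1.93 to 2.46 (median 2.11) in leaf, at least 50.1-fold higher (adjusted p = 6.62e-11). Of all 3 contigs with the dioxygenase number 2 were higher in dry seed and 1 in leaf, a count made after its values were seen. A caffeoyl-CoA O-methyltransferase, which methylates lignin precursors, was found 3 times among the 15, as contig12199 at 11.72, 11.87, 11.65 and 10.61, contig11569 at 10.48, 10.54, 10.24 and 10.64 and contig21555 at 9.44, 9.56, 9.49 and 8.57. They were at least 236-fold, at least 100.5-fold and at least 51.4-fold higher. Of all 14 contigs with this enzyme number 4 were in the class of dry seed and 1 in that of leaf, a count made after its values were seen. Contig11569 and contig21555 match the same RefSeq gene (LOC105634142) and may not be independent. In lipid metabolism stood contig01922, an adipose-regulatory protein (the family of seipin, at which oil droplets form). It read 9.73, 9.89, 9.41 and 10.01 and was at least 72.4-fold higher. With it stood contig00653, a WSD1-like O-acyltransferase with a diacylglycerol acyltransferase number, at 8.56, 9.11, 8.33 and 9.19 and at least 37.2-fold higher. All 3 antisense probes of contig00653 were called higher in dry seed, while 0 of its 4 sense probes were called. The geranylgeranyl diphosphate synthase contig21415, which makes the precursor of diterpenes and carotenoids, read 9.94, 9.30, 9.97 and 8.95 and was at least 62.1-fold higher. Its leaf values lay between 1.70 and 1.78.

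The rest of the 15 were a pathogen-related protein (contig02357), a conserved hypothetical protein (contig00004) and a contig matched to the small GTPase RABC2A (contig02486). They were at least 101-fold, at least 75.4-fold and at least 29.9-fold higher. Both strands of contig02357 carry 2 probes, and 2 antisense and 0 sense probes were called, higher in dry seed. Named through its list, a cytochrome c oxidase subunit 5c (contig10717) was at least 13.3-fold higher. An abscisic acid 8'-hydroxylase (contig17989), which inactivates abscisic acid and was named in the same way, was at least 2.82-fold higher. In each of these contigs 1 of 2 sense probes and 0 of 1 antisense probes were called, higher in dry seed. Contig17989 read 5.21, 4.02, 4.30 and 6.78 in dry seed, near the detection limits of 2.305 to 4.09 on the 14 arrays. Another contig with this enzyme number, contig10023, was on all leaf arrays and on no dry seed array, at 4.42 to 8.07 (median 5.98) in leaf and at least 8.74-fold higher there. Contigs of this enzyme were thus found on opposite sides.

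Transcripts of oil assembly were measured in both organs. Phospholipid:diacylglycerol acyltransferase (PDAT) transfers an acyl group to make the oil molecule. Contig02496 read 12.43, 12.36, 12.34 and 12.93 in dry seed and 8.21 to 9.14 (median 8.59) in leaf and differed by 3.95 (95% CI 3.70 to 4.21, adjusted p = 6.08e-10). Contig13416 read 10.43, 10.32, 10.28 and 9.66 and 5.86 to 6.91 (median 6.38) and differed by 3.84 (95% CI 3.35 to 4.32, adjusted p = 9.66e-08). Both were detected on all 14 arrays, with no overlap between the organs. Lysophosphatidic acid acyltransferase (LPAAT) contigs were higher in dry seed in 6 of 8 and in leaf in 1 (median difference 1.197), led by contig15092 with 2.84 (95% CI 2.48 to 3.196, adjusted p = 9.45e-08) and contig15096 with 2.58 (95% CI 2.12 to 3.04, adjusted p = 1.27e-06). Diacylglycerol acyltransferase (DGAT) contigs were higher in dry seed in 3 of 6 and in leaf in none (median difference 1.06). Apart from contig00653 the named one, contig07701, read 10.69, 9.62, 10.64 and 11.50 and 6.79 to 10.24 (median 8.30), with overlap, a difference of 2.19 (95% CI 0.76 to 3.63, adjusted p = 0.0158). This call was lost with non-toxic leaf only (adjusted p = 0.169) and without the dry seed array of slide 1 or slide 4 (0.0530 and 0.0919). Phosphatidate phosphatase contigs went both ways, contig05216 by 3.75 and contig10134 and contig03775 by -1.23 and -1.50. All 10 probes of contig05216 were higher in dry seed at 0.05. Triacylglycerol lipases, which release fatty acids, counted 9 of 24 in each direction. The class 3 lipase contig12671 was the highest in dry seed, at 11.27, 11.33, 11.17 and 12.26 against 5.54 to 8.29 (median 6.41), a difference of 5.21 (95% CI 4.47 to 5.94, adjusted p = 2.31e-07).

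In fatty acid synthesis 20 of 49 contigs were higher in dry seed and 20 in leaf, with a median difference of -0.15 that was above 0 under 4 of the alternatives. Its extremes were contig02217, given above, and the 3-oxoacyl-ACP reductase contig06231, at 4.57, 4.62, 5.42 and 6.54 against 10.40 to 12.06 (median 11.05), which differed by -5.84 (95% CI -6.69 to -4.99, adjusted p = 2.99e-07). The oleoyl-ACP hydrolase contig06582, which ends chain growth in the plastid, differed by -3.91 (95% CI -4.66 to -3.15, adjusted p = 2.58e-06). In the list of unsaturated fatty acids (18 of 51 higher in dry seed, 20 in leaf) the stearoyl desaturase contig07797 read 6.47, 5.69, 6.32 and 6.77 and 11.11 to 12.61 (median 12.14) and differed by -5.66 (95% CI -6.33 to -4.99, adjusted p = 6.10e-08). Fatty acid degradation counted 25 of 77 higher in dry seed and 31 in leaf. For comparison, 32.0% and 29.9% of all contigs were called in the 2 directions.

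Contig19317, annotated as ribulose-bisphosphate carboxylase (Rubisco, the enzyme that fixes carbon dioxide), read 17.50 to 18.85 (median 17.85) in leaf and 2.52, 5.36, 2.90 and 4.87 in dry seed, the largest difference among annotated contigs past 1e-08 in this direction at -14.05 (95% CI -14.80 to -13.29, adjusted p = 1.51e-10). It was well above background on 2 of the 4 dry seed arrays. The large subunit contig00674 (rbcL of the plastid genome) read 12.38, 12.11, 12.28 and 10.05 in dry seed and 12.33 to 17.31 (median 17.05) in leaf, a difference of -4.25 (95% CI -4.99 to -3.50, adjusted p = 1.20e-06). Its groups touched across slides, since leaf lay at 16.99 to 17.31 on slides 1 to 3 and at 12.33 to 12.89 on slide 4, where dry seed was lower too, at 10.05. Within each slide leaf was higher, by differences of -5.03 to -2.61. The photosystem II 10 kDa protein contig00556 (PSBR) read 10.83, 11.05, 10.82 and 9.77 and 17.57 to 18.40 (median 17.78) and differed by -7.33 (95% CI -7.91 to -6.75, adjusted p = 3.11e-09). The PsbP domain protein contig00736 was detected on all 14 arrays and differed by -0.32 (95% CI -0.86 to 0.22, adjusted p = 0.32), with the whole interval between -1 and 1. Another Rubisco contig, contig04560, was higher in dry seed, at 9.17, 9.07, 8.95 and 9.33 against 3.09 to 5.79 (median 4.20), a difference of 4.92 (95% CI 4.25 to 5.60, adjusted p = 1.84e-07). A contig annotated with the enzyme was thus found on each side.

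Carbon fixation enzymes were higher in leaf in 43 of 86 contigs and in dry seed in 20, with a median difference of -0.76. The lowest after Rubisco was contig06629, a fructose and sedoheptulose bisphosphatase of the Calvin cycle, at 3.61, 4.97, 4.26 and 6.03 in dry seed and 12.33 to 12.91 (median 12.55) in leaf, which differed by -7.83 (95% CI -8.55 to -7.11, adjusted p = 9.38e-09). Phosphoenolpyruvate carboxykinase (contig04002), which leads from oil-derived carbon to sugar, was higher in dry seed, at 10.05, 10.68, 10.26 and 8.33 against 5.52 to 6.43 (median 5.97), by 3.76 (95% CI 3.02 to 4.50, adjusted p = 2.97e-06). In porphyrin and chlorophyll synthesis 32 of 55 contigs were higher in leaf and 9 in dry seed (median difference -1.05). The 2 largest differences in favour of dry seed in this list, contig01353 above and contig20188 at 8.14 (95% CI 7.57 to 8.70, adjusted p = 1.14e-09), carry glycerol-3-phosphate acyltransferase and heme oxygenase annotations together. Protochlorophyllide reductase (contig03279), the light-driven step, read 6.36, 6.43, 6.64 and 6.92 and 12.89 to 13.61 (median 13.24), a difference of -6.65 (95% CI -7.00 to -6.29, adjusted p = 1.51e-10), and all 5 probes were higher in leaf. Glutamyl-tRNA reductase (contig10864), the entry step, read 7.35, 7.39, 7.42 and 8.72 and 12.83 to 14.37 (median 13.51) and differed by -5.75 (95% CI -6.13 to -5.37, adjusted p = 8.28e-10). In the carotenoid list (6 of 15 higher in dry seed, 8 in leaf) phytoene synthase contig10418 differed by -6.34 (95% CI -6.94 to -5.75, adjusted p = 1.11e-08), opposite to the dioxygenase contig02415 downstream of it. Red chlorophyll catabolite reductase (contig01489), of chlorophyll breakdown, read 2.44, 4.02, 3.79 and 2.72 in dry seed and 9.71 to 12.03 (median 11.32) in leaf and differed by -7.99 (95% CI -8.65 to -7.33, adjusted p = 4.33e-09).

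The 186 contigs of leaf with no dry seed signal held 56 annotated ones, 90 with a sense and 96 with an antisense probe, and all were called at 0.05. These calls too follow largely from the definition of the class. The fold in favour of leaf was at least 3.82 to 12539 with a median bound of 26.1. The peroxidase contig02903 read 12.99 to 15.79 (median 15.55) in leaf and 1.77, 2.09, 2.405 and 3.03 in dry seed, and was at least 4622-fold higher in leaf. The GDSL esterase contig00397 (matched to LTL1 of Arabidopsis) read 9.72 to 12.96 (median 11.92) and was at least 472-fold higher. Anthocyanidin synthase contig12700, a late enzyme of the flavonoid path, read 9.93 to 14.07 (median 11.68) and was at least 329-fold higher. A fructosidase of the invertase family (contig10320), a pectinesterase (contig17718, cell wall) and a NAC domain protein (contig01099, matched to the transcription factor NTL9) were at least 297-fold, at least 279.9-fold and at least 258-fold higher. Of all 23 pectinesterase contigs 13 were higher in leaf and 5 in dry seed, 3 of them on leaf arrays only and 1 on dry seed arrays only, a count made after its values were seen.

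Flavonoid and phenylpropanoid lists were near the background of 32.0% on the dry seed side. In the flavonoid list 31 of 106 contigs were higher in dry seed and 44 in leaf, 5 were on dry seed arrays only and 6 on leaf arrays only. Chalcone synthase contig04957, the first enzyme, read 12.43 to 16.39 (median 14.003) in leaf and 2.63, 3.25, 4.19 and 5.13 in dry seed and differed by -10.17 (95% CI -11.15 to -9.19, adjusted p = 1.33e-08). Phenylalanine ammonia-lyase contig05269, the entry to phenylpropanoids, read 11.30 to 13.44 (median 11.83) and 2.4997, 2.39, 3.94 and 1.87 and differed by -9.25 (95% CI -10.18 to -8.33, adjusted p = 1.71e-08), with 7 of 8 probes higher in leaf. Both differed in the direction opposite to the 3 caffeoyl-CoA O-methyltransferase contigs above. The phenylpropanoid list counted 25 of 89 higher in dry seed and 39 in leaf, with 4 and 7 contigs on arrays of one organ only.

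Other contigs named on the leaf side were a lipid-transfer protein 3-like (contig06348, of cuticle and membrane lipid carriage), at 8.65, 9.27, 8.89 and 8.18 in dry seed and 17.21 to 18.50 (median 17.94) in leaf, and the CONSTANS-like transcription factor COL5 (contig00675), at 4.56, 4.52, 3.68 and 5.45 and 13.31 to 13.83 (median 13.52). They differed by -9.19 (95% CI -9.77 to -8.60, adjusted p = 6.02e-10) and -8.96 (95% CI -9.51 to -8.42, adjusted p = 4.25e-10). A formamidase (contig03890), a beta-glucosidase (contig07683), the protein kinase SNRK2.7 (contig01901) and a contig with no named product (contig08438) differed by -8.99, -7.83, -7.83 and -9.76, with adjusted p of 2.68e-09, 9.07e-09, 4.21e-09 and 2.37e-09. None overlapped. In the glutathione list (12 of 67 higher in dry seed, 35 in leaf, median difference -0.84) ascorbate peroxidase contig02619 read 9.69, 9.03, 9.98 and 9.84 against 14.30 to 15.64 (median 15.24) and differed by -5.57 (95% CI -6.15 to -4.99, adjusted p = 2.43e-08), while glutathione peroxidase contig12280 read 16.13, 16.02, 16.13 and 15.57 against 11.35 to 13.75 (median 13.45) and differed by 2.80 (95% CI 2.24 to 3.37, adjusted p = 3.41e-06). Catalases, which break down hydrogen peroxide, were higher in dry seed in 3 of 8 contigs and in leaf in 2. Contig00902 read 15.56, 15.44, 15.64 and 16.02 against 16.11 to 18.93 (median 18.04) and differed by -2.32 (95% CI -3.29 to -1.35, adjusted p = 0.000981), with all 7 probes higher in leaf, and contig15134 differed by 1.49 (95% CI 1.163 to 1.81, adjusted p = 6.62e-06).

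**Figure D3:**
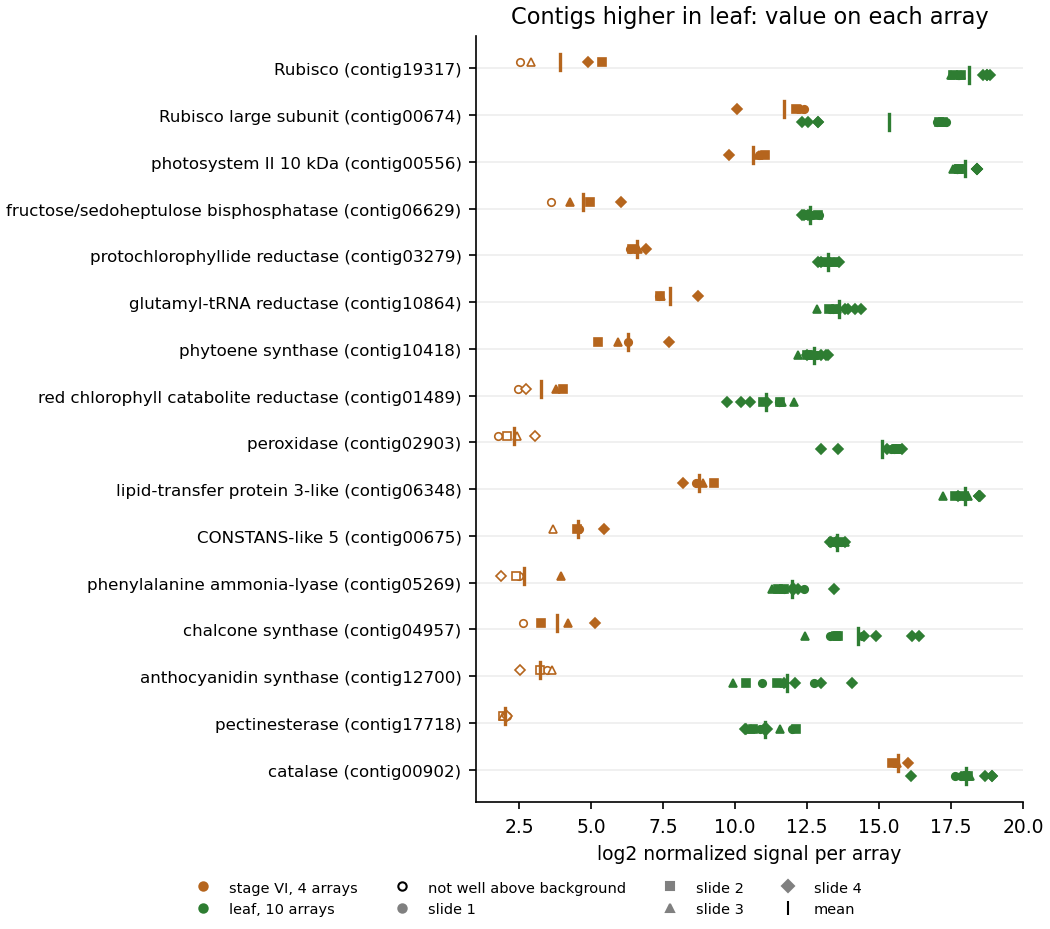
Log2 normalized signal of 16 contigs higher in leaf on each of the 4 stage VI and 10 leaf arrays, with marker shape for the slide, open markers for values not well above background and a bar for the mean. Of the 16 contigs only the Rubisco large subunit overlaps, across slides, with both organs lower on slide 4.

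Transcripts shared by both organs were defined by level, not by a missed test. A contig had a shared level if it was detected on all 14 arrays and the whole 95% CI of its difference lay between -1 and 1, that is, within a factor of 2. This held for 3596 contigs, 18.1% of all and 29.3% of those on all 14 arrays, and 625 of them were annotated. Of the 3596, 969 were still called at 0.05, 505 higher in dry seed and 464 in leaf, within these limits. Among the other contigs on all 14 arrays, 163 were called with at least a 16-fold difference in favour of dry seed and 342 in favour of leaf.

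The brightest annotated contigs at a shared level included ribosomal proteins and enzymes of primary metabolism. The ribosomal protein L15 (contig00871) read 15.13, 15.47, 15.004 and 15.12 in dry seed and 14.92 to 16.13 (median 15.16) in leaf and differed by -0.05 (95% CI -0.51 to 0.40, adjusted p = 0.857). L3-like (contig01050) and L12-like (contig00963) proteins of the large subunit read 14.74, 14.74, 14.52 and 15.03 and 14.24, 14.26, 14.25 and 15.36 in dry seed. They differed by 0.31 (95% CI -0.23 to 0.86, adjusted p = 0.336) and -0.01 (95% CI -0.36 to 0.33, adjusted p = 0.949), and contig01050 was higher in dry seed on slides 1 to 3 (0.51, adjusted p = 0.0217). Ribosomal protein S4 (contig00360) differed by -0.51 (95% CI -0.85 to -0.18, adjusted p = 0.0158), a call lost without the slide block (adjusted p = 0.849), with the authors' log2 values (0.514), with toxic leaf only (0.103), with non-toxic leaf only (0.0744) and without the dry seed array of slide 1 or slide 3 (0.0844 and 0.0676). In all 4 the organs overlapped. Contig00871 and contig00963 changed sign with some arrays left out, always near 0. Over the ribosomal list 7 of 34 contigs were higher in dry seed and 11 in leaf, 31 were on all 14 arrays and 12 at a shared level, with a median difference of 0.04. The leaf side of this list was led by the plastid type proteins contig00532 (50S) and contig00882 (L24), with -3.64 and -3.40, and the dry seed side by contig00545 (S13, also matched to a plastid protein of Arabidopsis) and contig00550 (S8e), with 1.70 and 1.59.

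In primary metabolism the glycolytic glyceraldehyde-3-phosphate dehydrogenase contig02705 read 15.38, 15.32, 15.52 and 16.16 in dry seed and 14.99 to 17.57 (median 15.81) in leaf and differed by -0.22 (95% CI -0.80 to 0.35, adjusted p = 0.521). Malate dehydrogenase contig11517 differed by -0.54 (95% CI -0.95 to -0.14, adjusted p = 0.0294), a call lost under 8 of 23 alternatives, with an adjusted p of 0.127 with no slide block, 0.169 on slides 1 to 3, 0.136 with non-toxic leaf only and, without the dry seed array of slide 2 or slide 4, 0.0943 and 0.139. A respiratory NADH:ubiquinone reductase contig15484 differed by -0.37 (95% CI -0.73 to -0.02, adjusted p = 0.0779). A glutaredoxin family protein (contig00083) and a peroxiredoxin (contig13779), both of redox balance, differed by 0.17 (95% CI -0.19 to 0.53, adjusted p = 0.43) and 0.22 (95% CI -0.07 to 0.52, adjusted p = 0.208). In each of these the organs overlapped. Transfer RNA charging had 25 of 54 contigs at a shared level, with 8 higher in dry seed and 24 in leaf, and oxidative phosphorylation 23 of 88, with 18 and 34. The extremes of the first list were contig19554 (serine, 4.13) and contig18303 (asparagine, on leaf arrays only, at least 11.2-fold higher in leaf). Those of the second were a succinate dehydrogenase contig19478, at 11.79, 12.14, 11.95 and 12.01 against 2.64 to 5.87 (median 4.80) with a difference of 7.44 (95% CI 6.20 to 8.69, adjusted p = 8.42e-07), and an inorganic diphosphatase contig12667 (on leaf arrays only, at least 11-fold higher in leaf).

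A shared level is a statement on the representing probe, and other probes of the contig could differ. For the LEA protein 2-like contig00783 the representing probe read 18.15, 18.26, 18.50 and 11.27 in dry seed and 11.14 to 18.28 (median 18.04) in leaf, a difference of 0.01 (95% CI -0.42 to 0.43, adjusted p = 0.981). On slides 1 to 3 both organs lay between 18.04 and 18.50, and on slide 4 between 11.14 and 12.22. Its other sense probe differed by 11.61 (adjusted p = 1.52e-05), with means of 17.51 in dry seed and 6.11 in leaf, and its antisense probe by 3.99 (adjusted p = 3.24e-06). In the authors' own log2 values the representing probe differed too, by 1.93 (adjusted p = 2.43e-07). The rbcL contig00674 was split by strand, with its 3 antisense probes at -4.72 to -4.20 and its 3 sense probes at -0.87 to 1.43. Sense and antisense are relative to the contig as assembled, whose own strand is not known. Of 10188 called contigs with several probes, 956 had a probe called in the other direction. Some probes were designed as cross-hybridizing and were not marked in the files used here.

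The lists can be read side by side. Malate synthase had the highest median difference among lists of several contigs, 10.52 as fitted and 9.21 with contig11513 at its bound. It was followed by galactinol synthase (7.39), oil body proteins (5.02), LEA and maturation proteins (4.36), PDAT (3.89) and heat shock proteins (3.41). The LEA and maturation median lies in a gap between 0.37 and 8.34, at the value of no contig. With the mean of all probes of a contig the first 2 medians fell to 6.38 and 4.26, and the LEA and oil body lists, at 5.15 and 4.74, then lay above galactinol synthase. The list built on photosystem and light-harvesting words has 3 contigs, of which 2 were higher in leaf. The rbcL contig00674 falls under these words too, and the median of the list, -4.25, is the value of that contig. Rubisco had a median of -1.94 (2 of 4 higher in leaf and 1 in dry seed). The isocitrate lyase list gets no rank, since its 2 contigs lie at 6.404 and -10.39 and only the first is matched to that enzyme. The median of every other list lay between -1.23 (phosphatidate phosphatase) and 1.70 (storage proteins), apart from the single MFT-like contig of the seed maturation regulators. Stachyose synthase counted 2 of 6 in each direction and the diterpenoid and gibberellin list 4 of 20 in each. No contig read here was annotated as curcin.

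**Figure D4:**
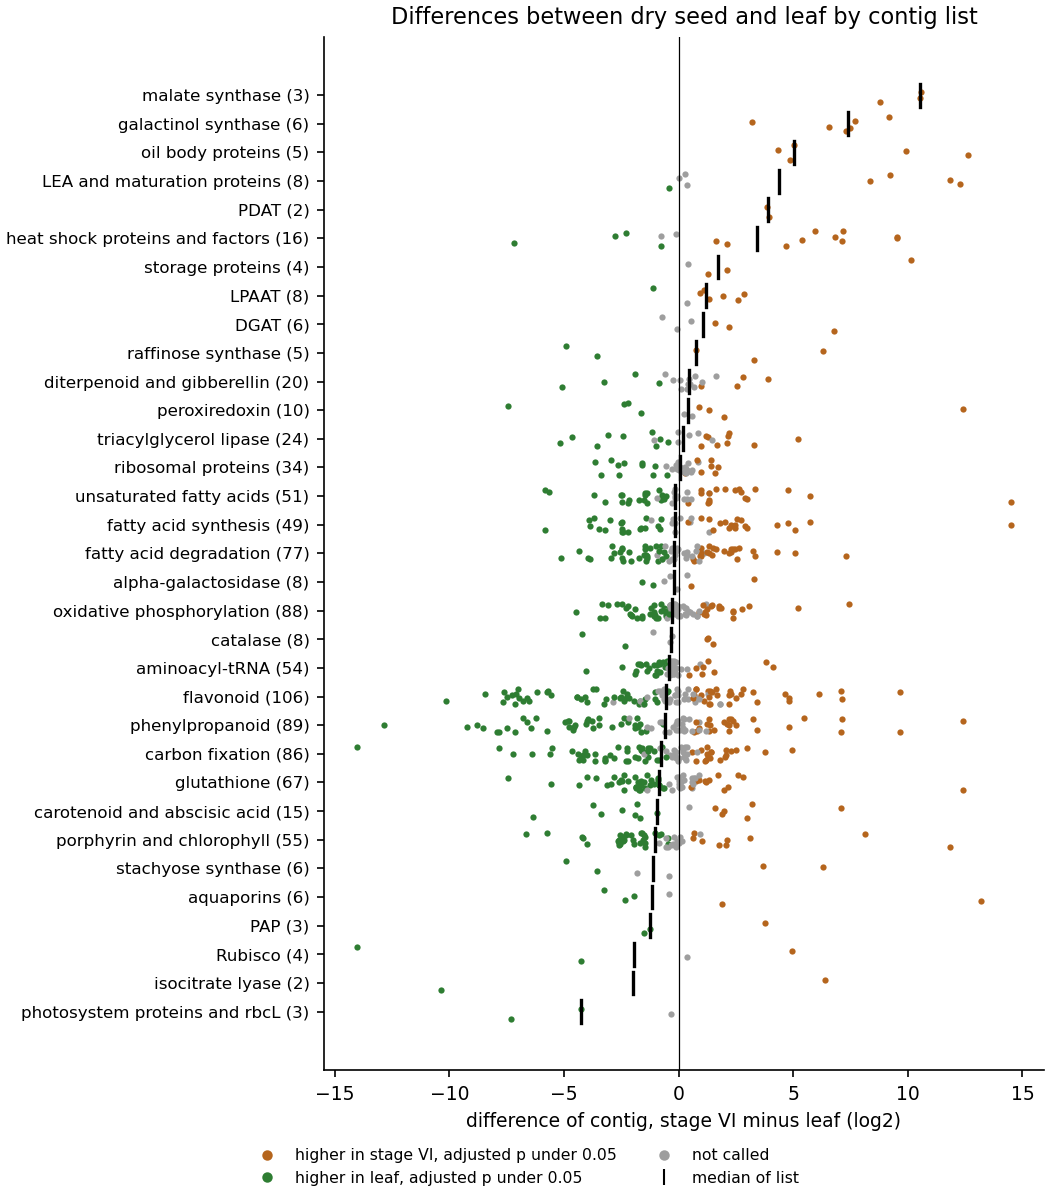
Difference of each contig, stage VI minus leaf on the log2 scale, in the contig lists, ordered by their median (black bar), with the number of contigs in parentheses, and with contigs measured in one organ only drawn at the fitted difference. Brown points are higher in dry seed and green points higher in leaf at an adjusted p under 0.05, and the median runs from -4.25 (the value of rbcL) to 10.52.

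The other seed stages show when the transcripts of dry seed appeared, given as a description over all 31 arrays with no test. Of the 294 contigs on dry seed and no leaf array, 130 were on all arrays of stage I, 120 of stage II, 161 of stage III, 236 of stage IV and 226 of stage V. Stages I, III and IV have 3 arrays, on slides 1 to 3, and stages II and V have 1 more on slide 4, so that detection on all arrays asks for more in those stages. On the 3 arrays of slides 1 to 3 alone, added after seeing the data, the numbers at stages II and V were 125 and 249. On all arrays of all 6 stages were 68, on no array of stages I to III 16, and on none of stages I to V 4, all of them unannotated (contig12094, contig14673, contig16898 and contig17431, named after their values were seen). Most of these contigs were therefore measured before drying. By mean level over the stages, contig02415 went from 2.59 at stage I to 8.41 at stage III and 9.22 at stage VI, contig00658 from 4.79 to 9.14 and 13.41, and contig12313 (oleosin) from 11.49 to 17.28 and 16.70. Contig07257, a 3-oxoacyl reductase higher in dry seed than in leaf by 5.74 (95% CI 5.01 to 6.47, adjusted p = 1.06e-07), took another course, from 11.24 at stage I down to 6.33 at stage V and up to 9.55 at stage VI.

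The contigs of leaf were detected most often at stage I. Of the 186 on leaf and no dry seed array, 148 were on all arrays of stage I, 108 of stage II, 43 of stage III, 57 of stage IV and 44 of stage V (108 and 53 at stages II and V on slides 1 to 3 alone). In at least 1 earlier stage 158 were on all arrays, 91 were on none of stages V and VI, and 9 were on no seed array. Since the array was designed from seed transcripts, some seed signal in an earlier stage could be met here by design. Chloroplast DnaJ contig00372 went in mean level from 13.66 at stage I to 10.45 at stage V and 7.78 at stage VI, and phenylalanine ammonia-lyase contig05269 from 12.20 to 6.32 and 2.85. Pectinesterase contig17718 lay between 1.98 and 3.09 in all 6 stages and was well above background on no seed array. Contigs at a shared level were on all arrays of each stage in 93.8% to 99.4% of cases before stage VI.

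**Figure D5:**
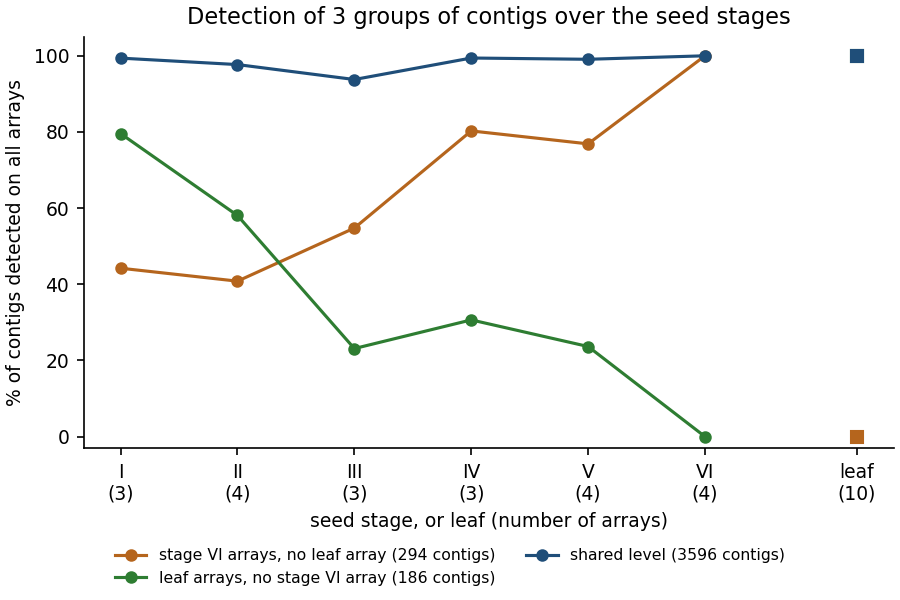
Share of contigs (percent) detected on all arrays of each seed stage and of leaf, for the 294 contigs of dry seed and no leaf array, the 186 of leaf and no dry seed array and the 3596 at a shared level; the values at stage VI and leaf follow from how the groups were defined, and stages II, V and VI have 4 arrays, 1 of them on slide 4, against 3 in the others. The first group rises from 44.2% at stage I to 80.3% at stage IV, the second falls from 79.6% to 30.6%, and the third stays at 93.8% or more.

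Toxic and non-toxic leaf were compared within the 10 leaf arrays. In limma 0 probes were called between them at an adjusted p under 0.05 (smallest adjusted p = 0.961), 2663 (4.60%) had an unadjusted p under 0.05, and the median absolute difference was 0.195 against 0.690 between the organs. That no probe was called does not show that both kinds of leaf are alike. The organ labels were checked against markers. Of 9 contigs of seed markers 6 were higher in dry seed and 1 in leaf, and of 2 contigs of leaf markers 1 was higher in leaf and none in dry seed. Rubisco small subunit, chlorophyll a/b-binding protein, plastocyanin and 2S albumin were not among the annotations read here. The 3 reference contigs of the study's quantitative PCR were all higher in leaf, contig04593 by -1.72 (95% CI -2.54 to -0.90, adjusted p = 0.00242), a call lost with non-toxic leaf only (-1.46, adjusted p = 0.0558), contig08378 (hydroxymethylglutaryl-CoA reductase) by -1.31 (95% CI -1.74 to -0.87, adjusted p = 0.000195) and contig09025 by -3.49 (95% CI -3.84 to -3.14, adjusted p = 1.83e-08).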

How the data were processed

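Seed and leaf RNA was labelled with cyanine-3 and hybridized to a custom Agilent array (1 colour) of 62976 spots, 61657 of them probes and 1319 controls, each slide holding 8 arrays. Per the file headers and the deposited scanner files, the intensity used here is the processed signal of Agilent Feature Extraction (version 10.5.1.1 in the submitters' processing notes), spatially detrended and background-subtracted. The authors also deposited log2 values, quantile normalized after spots of a probe were averaged and gaps filled from neighbours, and these served as an alternative.

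From the intensities, control and non-uniform outlier spots were left out, spots of a probe averaged, log2 taken, 262 missing values of the 14 arrays imputed from 10 neighbours, and the arrays quantile normalized, as the methods describe. A contig was represented by its probe with the highest mean of both organ means. Stage VI minus leaf was fitted with limma (version 3.58.1, R 4.3.3, data.table version 1.17.8) with the slide as a block, and p-values were adjusted by Benjamini-Hochberg over 57842 probes. The fit was tested on simulated data in which 57642 of 57842 probes were left unchanged and 50 were changed at each size. At 1e-08 it called 0%, 0%, 14% and 70% of probes changed by 1, 2, 4 and 8 on the log2 scale. At 0.05 it called 32%, 90%, 96% and 100%. The adjustment depends on the share of changed probes, and in the data 47.0% were called at 0.05. These percentages therefore hold for the simulation and may not hold for the data.

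The 136 named contigs are, by rule, the 12 annotated contigs of largest difference past 1e-08 with no overlap in each direction, up to 2 called contigs per list and direction (all contigs of a list of 3 or fewer), the 15 and 6 annotated contigs of highest level in the dry seed and leaf classes, the 10 annotated contigs of highest mean at a shared level, and 3 reference contigs. Members and lists were chosen with earlier results of these data known. Annotations of 3451 contigs came from the study's supplementary tables, which are held here only in part, and from RefSeq symbols of the assembly XTBG_Jcur_1.0. Probes designed to cross-hybridize could not be marked. Alternatives were no slide block, scaling to the 75th percentile, normexp with an offset of 50, only probes well above background, the authors' log2 values, slides 1 to 3, all 31 arrays, either kind of leaf alone, and each array left out.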

Additional observations from a re-analysis of the deposited data

Results flagged for a closer look

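Of 272 groups tested (the 4 dry seed and the 10 leaf values of each of the 136 named contigs), 35 held a value set apart from the rest of its group by a Dixon test at the 95% level, 24 in dry seed and 11 in leaf. Chance gives about 1 in 20 groups. On slide 4 lay 31 of the 35 values. All values are log2 normalized signals, each against the range of the other arrays of its organ.

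The dry seed array of slide 4 was high in 13 contigs. These were contig00550 (ribosomal protein S8e) at 13.21 against 11.98 to 12.11, contig00963 (ribosomal protein L12) at 15.36 against 14.24 to 14.26, contig02217 (3-oxoacyl reductase) at 19.09 against 17.35 to 17.50, contig02395 (Hsp22) at 15.65 against 14.87 to 14.97 and contig02496 (PDAT) at 12.93 against 12.34 to 12.43. It read contig06894 (serine tRNA ligase) at 10.69 against 9.76 to 9.89, contig08053 (cysteine proteinase) at 17.15 against 15.57 to 15.71, contig10023 (abscisic acid 8'-hydroxylase) at 2.58 against 1.97 to 2.01, contig10864 (glutamyl-tRNA reductase) at 8.72 against 7.35 to 7.42 and contig12671 (class 3 lipase) at 12.26 against 11.17 to 11.33. It read contig13681 (vicilin-like) at 15.43 against 12.79 to 13.05, contig19139 (taxadienol acetyltransferase) at 5.48 against 2.69 to 3.13 and contig19897 (TIP3-2-like) at 18.26 against 16.84 to 16.89. The same array was low in 9 contigs. Here it read contig00106 (DnaJ-related) at 11.66 against 13.18 to 13.30, contig00360 (ribosomal protein S4) at 13.36 against 15.05 to 15.25, contig00674 (rbcL) at 10.05 against 12.11 to 12.38, contig00783 (LEA protein 2-like) at 11.27 against 18.15 to 18.50 and contig03467 (raffinose synthase) at 10.25 against 12.09 to 12.26. Further, it read contig15484 (NADH:ubiquinone reductase) at 13.59 against 15.14 to 15.34, contig17586 (peroxiredoxin) at 2.21 against 5.41 to 5.87, contig20188 (glycerol-3-phosphate acyltransferase) at 12.16 against 12.90 to 12.999 and contig21555 (caffeoyl-CoA O-methyltransferase) at 8.57 against 9.44 to 9.56. Of the other dry seed arrays, that of slide 2 was set apart in contig03208 (galactinol synthase) at 9.67 against 10.55 to 10.65 and contig10717 (cytochrome c oxidase) at 8.199 against 6.96 to 7.06.

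In leaf, arrays of slide 4 were high in contig00083 (glutaredoxin) at 15.36 against 14.22 to 14.77, contig01472 (taxadienol acetyltransferase) at 7.44 against 4.83 to 6.08, contig02486 (RABC2A) at 2.56 against 1.78 to 2.11, contig05269 (phenylalanine ammonia-lyase) at 13.44 against 11.30 to 12.39, contig12671 (class 3 lipase) at 8.29 against 5.54 to 6.95 and contig15096 (LPAAT) at 11.07 against 9.68 to 10.31. They were low in contig00902 (catalase) at 16.11 against 17.65 to 18.93, contig05881 (malate synthase) at 1.72 against 3.77 to 5.90 and contig07257 (3-oxoacyl reductase) at 2.31 against 3.43 to 4.70. A leaf array of slide 1 or slide 3 was high in contig01922 (adipose-regulatory protein) at 2.91 against 2.01 to 2.39 and contig10717 (cytochrome c oxidase) at 2.39 against 1.94 to 2.17. For none of these was a cause tested.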

How the results depend on the processing

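The count of 400 probes past 1e-08 depended on the setting, while the directions of the named contigs mostly did not. It was 793 with no slide block, 960 with normexp, 883 with only probes well above background, 1750 with the authors' log2 values, 6379 with all 31 arrays, 27202 at an adjusted p under 0.05, 0 on slides 1 to 3, with toxic leaf only and with non-toxic leaf only, and 88 to 185 with 1 array left out. Scaling to the 75th percentile gave 510 and moved the median difference of all probes from -0.03 to 0.26. The 294 contigs of dry seed and no leaf array became 726 when at least 3 of 4 and at most 1 of 10 arrays were asked for, 565 on slides 1 to 3 and 297 to 412 with 1 array left out. The count of 217 with no probe of the contig on a leaf array was chosen after seeing the data. The 3596 contigs at a shared level became 1161 with an interval within 0.58 and 3147 to 3684 with 1 array left out.

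List medians moved as follows, in the order mean of all probes, normexp and authors' values. Malate synthase gave 6.38, 6.81 and 8.70, and galactinol synthase 4.26, 5.86 and 6.41. Oil body proteins gave 4.74, 4.47 and 4.52, with 4.67 on slides 1 to 3, and LEA and maturation proteins 5.15, 3.65 and 4.90. Carbon fixation gave -0.56, -0.54 and -0.86. Without the authors' values, heat shock proteins gave 1.77 and 2.35, porphyrin and chlorophyll -0.69 and -0.82, and storage proteins 0.355 and 0.545, with 2.07 under the 75th percentile. The photosystem list, whose median is the rbcL contig00674, gave -2.09 with the mean of all probes. The median of fatty acid synthesis was above 0 at 0.28 (mean of all probes), 0.32 (75th percentile), 0.0412 (normexp) and 0.0450 (authors' values), that of unsaturated fatty acids at 0.29 (75th percentile) and 0.0450 (authors' values), and that of alpha-galactosidase at 0.14 (75th percentile).

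Sign changes among the 136 named contigs concerned contigs near 0. They were contig00083 at -0.0101, contig00736 at 0.19 and contig13779 at -0.0240 with the authors' values, contig00783 at -0.13 with toxic leaf only, contig00871 at 0.17, contig00963 at 0.0646 and contig02705 at 0.0169 on slides 1 to 3, and contig00963 at 0.0416 with normexp. With 1 array left out contig00783 ran from -0.0664 to 0.17, contig00871 from -0.19 to 0.17, contig00963 from -0.0556 to 0.0625 and contig02705 from -0.34 to 0.0230. The cause was not tested. Replicate numbers were given in accession order and name no source. Codes in the titles of leaf arrays on slide 4 resemble codes of leaf arrays on slides 1 to 3. Whether they share a source is not stated, and all leaf arrays entered the model as separate. Titles of the dry seed arrays carry unlike codes too, some with a letter A or B and some with what looks like a year. Their meaning is not stated, and the dry seed arrays also entered as separate. No paired analysis of leaf with dry seed was made, since no label names a source common to both. The slide block takes the place of one. The number of arrays, 4 against 10, and a median spot signal per array of 1.88 to 3.50 times background limit the precision.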
